A study of Mus musculus with 12 samples.

Results

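The insulin-like growth factor (IGF) system was followed through 10 genes, the ligands Igf1 and Igf2, the receptors Igf1r and Igf2r, and the binding proteins Igfbp2 to Igfbp7, out of 36119 genes in the deposited hippocampus table. The members were taken by symbol, each had 1 row in the table, and all 10 passed the filter on low values, a mean of at least 1 TPM over the 12 libraries. RNA came from whole dissected hippocampus of C57BL/6 mice killed at postnatal day 70. There were 4 groups of 3 libraries, called enriched ethanol, standard ethanol, enriched saline and standard saline after the cage and the injection. Ethanol pups were injected under the skin with ethanol at 2.5 g/kg, dissolved in saline (0.15 M), and saline pups with an equal volume of that saline. Both had 2 injections, spaced by 2 hours, on each of the postnatal days 6 and 7. Pups were assigned to a cage type on day 21, and an enriched cage was a large colony cage for 2 to 6 littermates of 1 sex, with wheels, ladders, toys and extra nesting material. The series is described as a model of fetal alcohol exposure and its tags speak of a prenatal treatment, whereas all injections in the protocol followed birth. The labels give no litter and no sex for single mice, so p values measure only the spread between these libraries.

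IGF1 and IGF2 are secreted growth factors that act through the receptor tyrosine kinase IGF1R, which signals through IRS adaptors to the PI3 kinase, AKT and MTOR cascade. IGF2R, the cation-independent mannose 6-phosphate receptor, takes up IGF2 for breakdown in lysosomes, and in the mouse Igf2 is expressed from the paternal and Igf2r from the maternal allele in most tissues. The binding proteins hold the ligands in extracellular fluid and either restrain or prolong their action. In the hippocampus the system is known for roles in neuronal survival, adult neurogenesis and memory, while much of the brain's Igf2 and Igfbp2 RNA is made in the choroid plexus and the meninges.

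Values are the deposited TPM, a measure per transcript length, so levels of different genes can be set side by side. Columns summed to between 973187 and 1024536, which are not the sums of plain TPM. The values, written as TPM throughout, were therefore taken as in proportion to TPM, and the sequencing depth is unknown. Hippocampal markers were present in every library, with Slc17a7 between 475 and 619 TPM, Camk2a between 515 and 951 TPM and the granule cell factor Prox1 between 18.7 and 41.9 TPM. Libraries stood apart in cell type markers, beginning with those of neighbouring tissue. The 12 choroid plexus markers summed to 7910 TPM in enriched saline replicate 2 and to 461 TPM in standard ethanol replicate 1, against 53.5 to 159 TPM in the other 10 libraries. The 15 meningeal fibroblast markers summed to between 164 and 193 TPM in enriched ethanol, 189 and 232 TPM in standard ethanol, 182 and 264 TPM in enriched saline, and 117 and 187 TPM in standard saline libraries. Their mean log2 deviation from the 12-library mean was highest in enriched saline replicate 2 (0.52) and lowest in standard saline replicate 2 (-0.94). Dcn and Pdgfra, at 62.2 and 34.4 TPM on average, weigh most in the sums, whereas the mean deviation weighs all 15 markers alike. Whether the RNA of these 2 genes came from meningeal cells alone was not tested, so the sums are not a measure of meningeal tissue only. Of the 15 markers, 11 averaged higher in enriched saline than in the other libraries, and 1 in standard saline. Not every marker followed: Col1a1 was at 4.95 TPM in enriched saline replicate 2, against an average of 5.82 TPM. Its lowest library was standard saline replicate 3 (2.64 TPM). Standard saline replicate 2 stood apart in hippocampal cell types too. Its 12 dentate granule cell markers summed to 520 TPM, against 289 to 380 TPM in the other 11 libraries. Its mean deviation was the highest of all libraries for dentate granule cell (0.56) and glutamatergic neuron markers (0.27), and the lowest for oligodendrocyte (-0.46) and astrocyte markers (-0.14). No marker of these lists was at 0 in every library. In bulk tissue, fewer cells of a type and less RNA per cell cannot be told apart.

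The 10 genes spanned a wide range of levels. Igfbp4 averaged 58.9 TPM over the 12 libraries, Igfbp5 56.8 TPM, Igfbp2 43.9 TPM, Igf2 25.2 TPM, Igfbp6 23.4 TPM, Igf2r 23.2 TPM, Igfbp7 19.9 TPM, Igf1r 18.4 TPM, Igfbp3 10.7 TPM and Igf1 4.03 TPM. Igf1r lay above Igfbp3, and Igfbp3 above Igf1, in 12 of 12 libraries with ranges that did not overlap, whereas the ranges of all other neighbours in this order overlapped. Spread within groups divided the genes as well. The within-group SD on the log2 scale was 0.63 for Igfbp2, 0.52 for Igfbp6 and 0.50 for Igf2, which put them at the percentiles 95.5, 93.4 and 92.8 of the 14947 genes tested. Igfbp3 and Igfbp4 lay at the percentiles 19.8 and 26.4, with SDs of 0.09 and 0.11, against a median of 0.16 over all genes tested. The 6 binding proteins together summed to 194 to 208 TPM in enriched ethanol, 194 to 226 TPM in standard ethanol, 199 to 320 TPM in enriched saline and 160 to 228 TPM in standard saline libraries, so the groups overlapped.

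**Figure D1:**
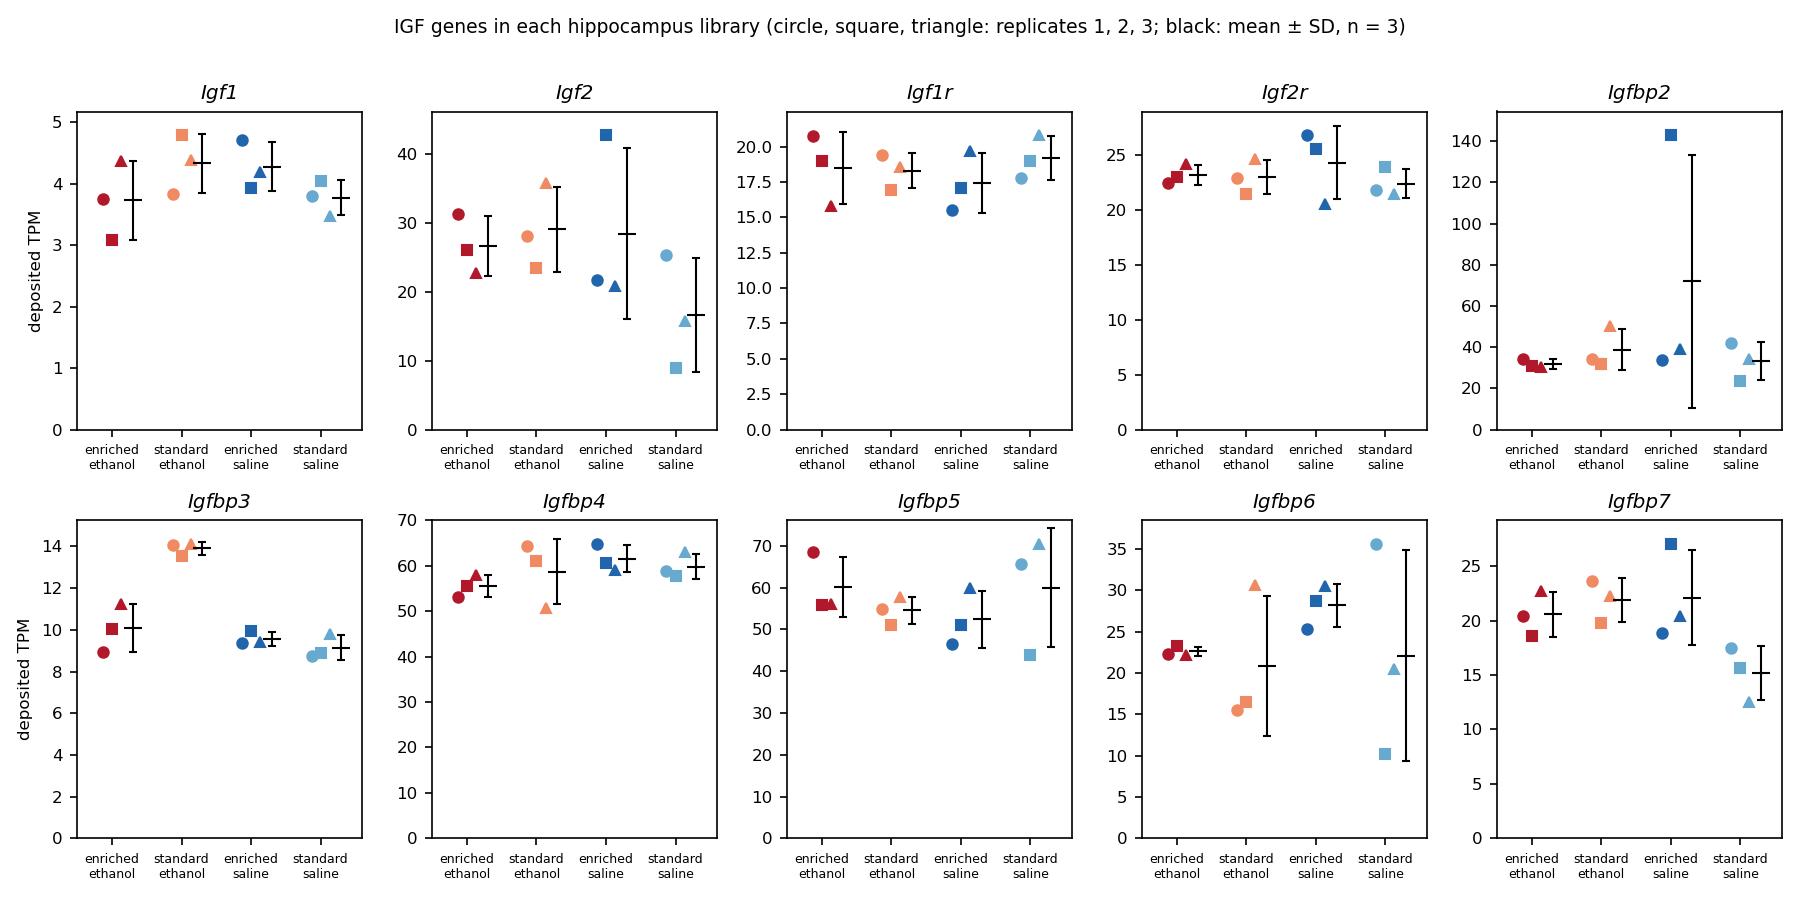
Deposited TPM (y axis, from 0) of the 10 IGF genes in the 12 hippocampus libraries, by group (x axis); circles, squares and triangles are replicates 1, 2 and 3 and black bars are mean ± SD (n = 3). The 3 standard ethanol libraries of Igfbp3 sit between 13.6 and 14.1 TPM, above the other 9, while Igfbp2 has 1 library at 143 TPM.

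Igf1 (ENSMUSG00000020053; chromosome 10, 87858265 to 87937042, GRCm38), the ligand whose circulating form is made by the liver under growth hormone, was the lowest of the 10 genes. It was at 3.75, 3.08 and 4.36 TPM in enriched ethanol, 3.83, 4.79 and 4.38 TPM in standard ethanol, 4.71, 3.93 and 4.19 TPM in enriched saline, and 3.80, 4.05 and 3.48 TPM in standard saline libraries. The groups overlapped in every pairing, and its log2 fold changes between 2 groups lay between -0.20 and 0.17 (the 4 single-factor comparisons). None of these passed limma, where the Benjamini-Hochberg adjusted p is taken over all genes tested.

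Igf2 (ENSMUSG00000048583; chromosome 7, 142650766 to 142666816), the fetal growth ligand that also serves memory in the adult hippocampus, was more abundant than Igf1 in every library, by 2.20 to 10.9 times. Its neighbour Ins2, 11839 bases away on the same strand, averaged 0.384 TPM. It was at 31.3, 26.0 and 22.7 TPM in enriched ethanol, 28.0, 23.4 and 35.7 TPM in standard ethanol, 21.7, 42.7 and 20.9 TPM in enriched saline, and 25.4, 8.91 and 15.7 TPM in standard saline libraries. Standard saline replicates 2 and 3 were the lowest libraries of all 12, and replicate 1 of that group lay within the range of the others. In standard cages the log2 fold change of ethanol over saline was 0.88 (SE 0.34; limma adjusted p = 0.587), and in saline mice that of enriched over standard cages was 0.79 (SE 0.34; limma adjusted p = 0.478). Neither passed, and both rest on the same standard saline libraries. Without standard saline replicate 2 they were 0.51 and 0.42. Without enriched saline replicate 2, the library high in choroid plexus markers, the enrichment value in saline mice was 0.46, and without both libraries it was 0.09. The ethanol value was 1.24 without standard saline replicate 1.

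Across the 12 libraries Igf2 followed the meningeal fibroblast markers (Pearson's r = 0.92, permutation p = 1.4e-04, adjusted p = 0.0154 over 110 relations of the 10 genes with 11 marker lists). Spearman's rho was 0.72 (permutation p = 0.0104, adjusted p = 0.190), which did not pass, and r was 0.68 without standard saline replicates 2 and 3, the pair farthest from the median of the markers. With each group's mean removed r was 0.94, so the relation also ran within groups. The part of meningeal tissue in the Igf2 differences between groups was not tested.

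**Figure D2:**
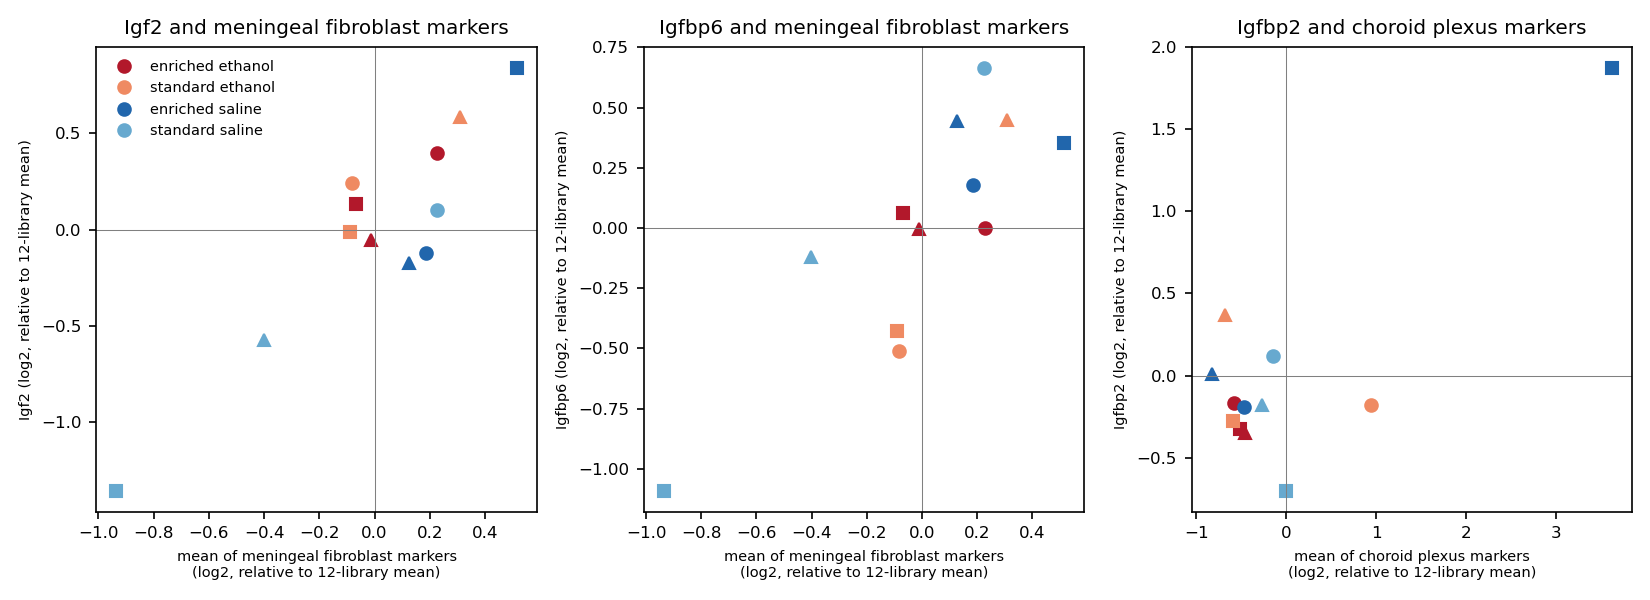
Igf2 and Igfbp6 against the mean of the 15 meningeal fibroblast markers, and Igfbp2 against the mean of the 12 choroid plexus markers; both axes are log2(TPM + 0.5) relative to the 12-library mean, each point is a library, and circles, squares and triangles are replicates 1, 2 and 3. Standard saline replicate 2 is the lowest point for Igf2 and Igfbp6, and enriched saline replicate 2 stands alone at 3.62 on the choroid plexus axis.

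Both receptors had within-group SDs (0.15 for Igf1r and 0.12 for Igf2r, log2 scale) below the median of all genes. Igf1r (ENSMUSG00000005533; chromosome 7, 67952827 to 68233668), the signalling receptor for both ligands, was at 20.7, 18.96 and 15.8 TPM in enriched ethanol, 19.4, 17.0 and 18.6 TPM in standard ethanol, 15.5, 17.1 and 19.7 TPM in enriched saline, and 17.8, 18.97 and 20.8 TPM in standard saline libraries. Igf2r (ENSMUSG00000023830; chromosome 17, 12682406 to 12769664), the clearance receptor, was at 22.4, 22.9 and 24.2 TPM in enriched ethanol, 22.9, 21.4 and 24.6 TPM in standard ethanol, 26.8, 25.5 and 20.5 TPM in enriched saline, and 21.8, 23.9 and 21.4 TPM in standard saline libraries. All groups overlapped for both genes. Their log2 fold changes in the 4 comparisons between 2 groups ran from -0.14 to 0.08 for Igf1r and from -0.06 to 0.11 for Igf2r. The 95% intervals reached as far as -0.40 for Igf1r and 0.33 for Igf2r. Over the 12 libraries Igf1 and Igf1r ran against each other (r = -0.62, rho = -0.65, permutation p = 0.0298 and 0.0252), but none of the 45 pairs of the 10 genes passed the adjustment, the smallest adjusted p being 0.325.

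Igfbp3 was the gene of the 10 with the smallest p in any comparison. It encodes the main carrier of IGFs in blood, and in the hippocampus it was the lowest binding protein of the 6. It lies at chromosome 11, 7206086 to 7213923 on the minus strand (ENSMUSG00000020427), 3539 bases from Igfbp1. Igfbp7 (ENSMUSG00000036256; chromosome 5, 77349240 to 77408041, minus strand), a secreted protein that binds IGFs weakly and is deposited around vessels, was the other member whose ethanol and saline libraries in standard cages did not overlap (2 of 10 members, against 12.1% of all genes). For that reason the 250 bases before the RefSeq start of these 2 genes are shown (GRCm38.p6, chr11:7213924-7214173 and chr5:77408046-77408295, each read 5′ to 3′ on the minus strand). Capitals mark the GC box, GGGCGG on either strand.
Igfbp3: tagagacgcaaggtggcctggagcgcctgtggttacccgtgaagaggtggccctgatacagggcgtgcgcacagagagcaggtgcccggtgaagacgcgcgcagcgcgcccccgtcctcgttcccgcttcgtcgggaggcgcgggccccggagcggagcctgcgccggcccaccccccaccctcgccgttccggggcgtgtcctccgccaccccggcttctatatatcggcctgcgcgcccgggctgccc
Igfbp7: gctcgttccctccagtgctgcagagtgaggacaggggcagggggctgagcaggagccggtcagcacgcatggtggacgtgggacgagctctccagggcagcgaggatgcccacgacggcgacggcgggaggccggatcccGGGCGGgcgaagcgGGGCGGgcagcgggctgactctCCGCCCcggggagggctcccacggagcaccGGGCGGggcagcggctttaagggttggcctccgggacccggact
The Igfbp7 window holds 4 GC boxes, which start 110, 96 and 44 bases before the start on the gene's strand and 74 bases before it on the opposite strand, and the Igfbp3 window holds 0. TATAAA and CCAAT, searched as exact letters on both strands, are in neither. Looser forms were not searched, and the Igfbp3 window holds tatatat. Of 32851 promoter windows of the same length, 32.7% hold GGGCGG, 12.4% TATAAA and 33.8% CCAAT. Both windows are rich in G and C, at 73.2% for Igfbp3 and 74.0% for Igfbp7, against a median of 52.4% over all windows. Neither trait is particular to them. Windows of the other members ran from 47.6% for a window of Igf2 to 77.6% for Igf1r. GC boxes were also found before Igf1r, Igf2, Igf2r and Igfbp2. These matches describe the letters only.

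Igfbp3 was higher in standard ethanol than in any other group. It was at 8.95, 10.04 and 11.3 TPM in enriched ethanol, 14.1, 13.6 and 14.1 TPM in standard ethanol, 9.35, 9.95 and 9.42 TPM in enriched saline, and 8.73, 8.87 and 9.81 TPM in standard saline libraries. The 3 standard ethanol libraries lay above all other 9, and those 9 overlapped. The group averaged 13.9 ± 0.310 TPM, against 10.1 ± 1.16 TPM in enriched ethanol, 9.57 ± 0.327 TPM in enriched saline and 9.14 ± 0.590 TPM in standard saline (SD, n = 3 each). In standard cages the log2 fold change of ethanol over saline was 0.58 (SE 0.10), the 4th smallest p of 14947 genes, and it did not pass (limma unadjusted p = 9.5e-05, adjusted p = 0.243). In ethanol mice the log2 fold change of enriched over standard cages was -0.45 (SE 0.10; limma adjusted p = 0.595), which uses the same standard ethanol libraries. In enriched cages ethanol over saline was 0.07 with a 95% interval of -0.15 to 0.29, and in saline mice enrichment was 0.07 with an interval of -0.16 to 0.29. The difference between the ethanol effects of the 2 cage types, the interaction, was -0.52 (SE 0.14; limma adjusted p = 0.529). Averaged over housing, ethanol gave 0.32 (SE 0.07; limma adjusted p = 0.329), and averaged over injection, enrichment gave -0.19 (SE 0.07; limma adjusted p = 0.585).

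Oligodendrocyte markers were also high in these libraries. The 12 markers summed to 4085 to 6065 TPM in enriched ethanol, 5654 to 5965 TPM in standard ethanol, 3413 to 4234 TPM in enriched saline and 3419 to 5854 TPM in standard saline libraries. Their mean log2 deviation was 0.31 to 0.36 in standard ethanol, but 0.40 in enriched ethanol replicate 3 and 0.28 in standard saline replicate 1, where Igfbp3 was at 11.3 and 8.73 TPM. Across all 12 libraries Igfbp3 and these markers gave r = 0.68 and rho = 0.65 (permutation p = 0.0178 and 0.0253, adjusted p = 0.210 and 0.343), with r at 0.61 without the 2 libraries farthest from the markers' median and 0.37 with group means removed. The 11 mural cell markers had mean deviations of -0.12 to 0.16 in enriched ethanol, 0.12 to 0.24 in standard ethanol, -0.09 to 0.02 in enriched saline and -0.32 to 0.12 in standard saline libraries. The part of either cell type in the Igfbp3 values was not tested.

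Igfbp7 differed from Igfbp3 in which group stood apart: its standard saline libraries were the low ones. It was at 20.4, 18.6 and 22.7 TPM in enriched ethanol, 23.7, 19.7 and 22.3 TPM in standard ethanol, 18.8, 27.1 and 20.4 TPM in enriched saline, and 17.4, 15.6 and 12.5 TPM in standard saline libraries. All 3 standard saline libraries lay below the other 9, and the other 3 groups overlapped. The group means were 20.6 ± 2.08 TPM in enriched ethanol, 21.9 ± 1.98 TPM in standard ethanol, 22.1 ± 4.36 TPM in enriched saline and 15.2 ± 2.51 TPM in standard saline (SD, n = 3 each). Ethanol over saline in standard cages gave 0.52 on the log2 scale (SE 0.15; limma unadjusted p = 0.0047, adjusted p = 0.452), and enriched over standard cages in saline mice gave 0.52 (SE 0.15; limma adjusted p = 0.324). These 2 values share the standard saline libraries, and neither passed. With 1 library left out, the ethanol value ran from 0.39 (without standard saline replicate 3) to 0.63. The enrichment value ran from 0.37 to 0.63, and was lowest without enriched saline replicate 2, the library high in choroid plexus markers. The interaction was -0.61 (SE 0.21; limma adjusted p = 0.601). The lowest library of each list of vessel markers was in standard saline. The 12 endothelial markers summed to 166 to 206 TPM in enriched ethanol, 203 to 207 TPM in standard ethanol, 202 to 231 TPM in enriched saline and 162 to 203 TPM in standard saline libraries, and the 11 mural markers summed to 152 to 177, 168 to 183, 159 to 169 and 130 to 170 TPM in the same order of groups. With Igfbp7 these lists gave r = 0.67 and 0.64 (rho = 0.56 and 0.60; permutation p of r = 0.0170 and 0.0229, of rho = 0.0635 and 0.0424). No adjusted p passed (0.210 for both r, 0.437 and 0.349 for rho). Without the 2 farthest libraries r was 0.41 and 0.04, so the mural relation rests on standard saline replicates 2 and 3. Igfbp7 stood in a like relation to the meningeal fibroblast markers, whose mean deviation was -0.94 and -0.40 in those 2 libraries (r = 0.67, rho = 0.55, permutation p = 0.0229 and 0.0724, adjusted p = 0.210 and 0.442). Without those 2 libraries r was 0.36. The part of vessel cells or meningeal tissue in the Igfbp7 difference was not tested.

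Igfbp2 (ENSMUSG00000039323; chromosome 1, 72824503 to 72852474), a binding protein abundant in the developing brain and cerebrospinal fluid, was the most uneven of the 10 genes. It was at 34.4, 30.8 and 30.3 TPM in enriched ethanol, 34.0, 31.9 and 50.2 TPM in standard ethanol, 33.8, 143 and 38.9 TPM in enriched saline, and 42.0, 23.6 and 34.0 TPM in standard saline libraries. The value of 143 TPM belongs to enriched saline replicate 2, the library in which the choroid plexus gene Ttr reached 7503 TPM. Standard ethanol replicate 1, which has the next highest Ttr (385 TPM), had 34.0 TPM of Igfbp2. Since 1 library stands alone on the choroid plexus axis, no correlation over all 12 is given. Without enriched saline replicate 2 and standard ethanol replicate 1, r between Igfbp2 and the choroid plexus markers was -0.49 over 10 libraries. With the meningeal fibroblast markers Igfbp2 gave r = 0.68 and rho = 0.76 over all 12 libraries (permutation p = 0.0511 and 0.0055, adjusted p = 0.433 and 0.122), which did not pass. Without standard saline replicates 2 and 3 that r was 0.83. The part of either tissue in the Igfbp2 values was not tested. Igfbp2 had no p under 0.05 and no separation of groups, so its values are given here after having been seen. Ethanol over saline in enriched cages came to -0.84 on the log2 scale (SE 0.43; limma adjusted p = 0.665) and -0.19 without enriched saline replicate 2. Enrichment in saline mice gave 0.82 (SE 0.43; limma adjusted p = 0.546), 0.16 without that library and -0.06 without standard saline replicate 2 as well.

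Igfbp6 (ENSMUSG00000023046; chromosome 15, 102144362 to 102149511), which binds IGF2 in preference to IGF1, also varied within groups. It was at 22.3, 23.3 and 22.2 TPM in enriched ethanol, 15.5, 16.5 and 30.6 TPM in standard ethanol, 25.4, 28.7 and 30.6 TPM in enriched saline, and 35.6, 10.2 and 20.5 TPM in standard saline libraries. Standard saline held both the highest and the lowest library. In enriched cages all 3 ethanol libraries lay below all 3 saline libraries, and the fitted difference on the log2 scale was -0.31 (SE 0.35; limma adjusted p = 0.840). In standard cages ethanol over saline was 0.02, and -0.44 without standard saline replicate 2, the lowest library. Leaving out the lowest saline library can only lower the ethanol value, and the value of -0.44 was picked out after it was seen. Igfbp6 followed 3 marker lists across the 12 libraries. Pearson's r was 0.84 with meningeal fibroblast, 0.82 with interneuron and -0.81 with glutamatergic neuron markers (permutation p = 0.0013, 8.9e-04 and 0.0010, adjusted p = 0.0352 for each). Spearman's rho was 0.80, 0.81 and -0.80 (permutation p = 0.0025, 0.0022 and 0.0030), and its adjusted p of 0.0822 did not pass for any of the 3. Without the 2 libraries farthest from each list's median r was 0.70, 0.76 and -0.71. The part of these cell types in the Igfbp6 difference was not tested.

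Igfbp4 and Igfbp5 were the most abundant of the 10 genes. Igfbp4 (ENSMUSG00000017493; chromosome 11, 99041244 to 99054392), an inhibitor of IGF action that the protease PAPPA cleaves, was at 53.2, 55.5 and 58.1 TPM in enriched ethanol, 64.4, 61.1 and 50.7 TPM in standard ethanol, 64.8, 60.6 and 59.2 TPM in enriched saline, and 58.8, 57.7 and 63.0 TPM in standard saline libraries. In enriched cages its ethanol libraries lay below its saline libraries without overlap, by a small step: the log2 fold change was -0.15 (SE 0.09; limma adjusted p = 0.697). Igfbp5 (ENSMUSG00000026185; chromosome 1, 72857932 to 72874884), the most conserved binding protein and a neighbour of Igfbp2 on the opposite strand at a distance of 5457 bases, was at 68.5, 55.9 and 56.2 TPM in enriched ethanol, 54.9, 51.1 and 57.7 TPM in standard ethanol, 46.5, 51.1 and 59.9 TPM in enriched saline, and 65.7, 43.9 and 70.5 TPM in standard saline libraries. All groups of Igfbp5 overlapped. With the astrocyte markers Igfbp5 gave r = 0.70 and rho = 0.56 (permutation p = 0.0123 and 0.0623, adjusted p = 0.210 and 0.437), and r = 0.72 without standard saline replicate 2 and enriched saline replicate 3. Without standard saline replicate 2, its lowest library, ethanol over saline in standard cages was -0.32 (limma unadjusted p = 0.020, adjusted p = 0.615). With all libraries it was -0.11. Leaving out the lowest saline library can only lower the ethanol value, and the value of -0.32 was singled out after it was seen.

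**Figure D3:**
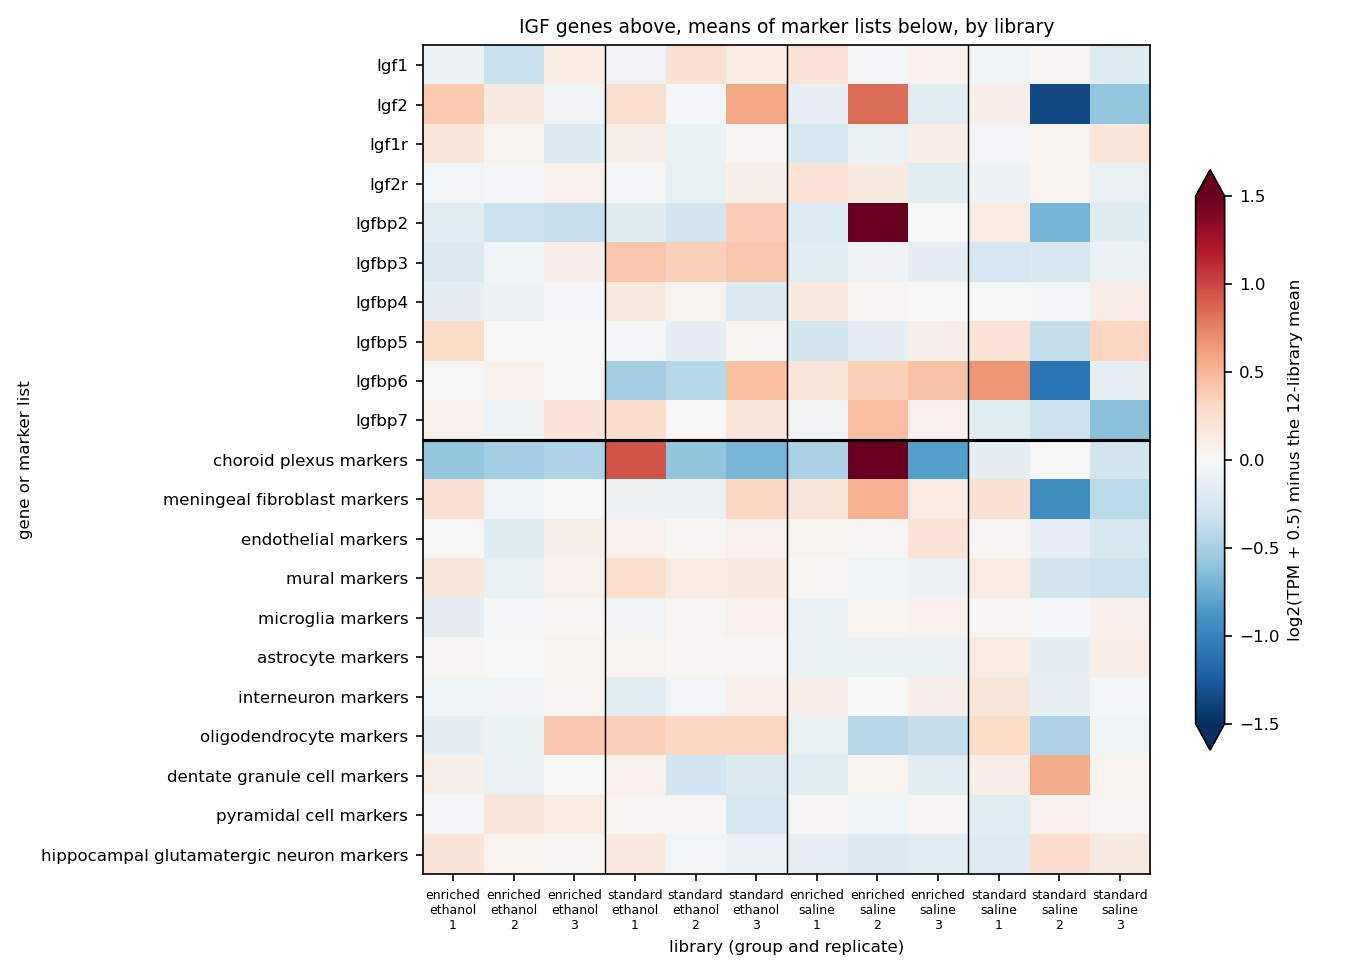
Each row is an IGF gene or the mean of a marker list and each column a library, with the colour giving log2(TPM + 0.5) relative to the 12-library mean (colours end at -1.5 and 1.5). Standard saline replicate 2 was the lowest library for 4 of the 10 genes (Igf2, Igfbp2, Igfbp5 and Igfbp6) and for the meningeal fibroblast, oligodendrocyte and astrocyte markers, and the highest for dentate granule cell and glutamatergic neuron markers; enriched saline replicate 2 was the highest for 3 (Igf2, Igfbp2 and Igfbp7).

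Counted over the 10 genes, 0 passed limma's adjusted p in any of the 7 comparisons, and few genes did in the whole table. In standard cages 0.0134% of all genes passed for ethanol, while at an unadjusted p under 0.05 there were 3 of 10 members (Igf2, Igfbp3 and Igfbp7), against 7.39% of all genes. All 3 were higher in ethanol mice, against 3.75% of all genes with such a p on the higher side. Groups did not overlap for 2 of 10 (Igfbp3 and Igfbp7), against 12.1% of all genes, or 6.11% counting those that were higher. The members' median log2 fold change there was 0.11, with 7 higher and 3 lower, against a median of 0.00 over all genes.

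In enriched cages 0% of all genes passed for ethanol, and 0 of 10 members had an unadjusted p under 0.05 against 7.76% of all genes. Groups did not overlap for 2 of 10 (Igfbp4 and Igfbp6, both lower), against 15.2% of all genes, or 7.45% counting those that were lower. The median was -0.07, with 3 higher and 7 lower, and -0.01 over all genes.
For enrichment in saline mice 0.0268% of all genes passed. Of the members, 2 of 10 had an unadjusted p under 0.05 (Igf2 and Igfbp7, both higher), against 10% of all genes, or 5.43% counting those that were higher. Groups did not overlap for 1 of 10, Igfbp7, against 14% of all genes, or 7.4% on the higher side. The median was 0.13, with 8 higher and 2 lower, and 0.00 over all genes.
For enrichment in ethanol mice 0.00669% of all genes passed. Igfbp3 was the 1 of 10 with an unadjusted p under 0.05, against 5.57% of all genes, or 2.66% counting those that were lower in enriched cages. It was also the 1 of 10 that did not overlap, against 12%, or 5.97% on the lower side. The median was -0.08, with 4 higher and 6 lower, and -0.01 over all genes.
For ethanol averaged over housing 0.0134% of all genes passed and 1 of 10 members, Igfbp3, had an unadjusted p under 0.05, against 8.02%, or 3.97% on the higher side. For enrichment averaged over injection 0.0201% passed and again 1 of 10, Igfbp3, had an unadjusted p under 0.05, against 7.96%, or 3.82% on the lower side. Groups of 6 libraries did not overlap for 0 of 10 members in either average, against 0.415% and 0.375% of all genes. For the interaction 0.0134% of all genes passed and 2 of 10 members, Igfbp3 and Igfbp7, had an unadjusted p under 0.05, against 7.41%, or 3.99% on the lower side. The members' median interaction was -0.34, with 2 higher and 8 lower, against -0.01 over all genes. The comparisons share libraries, so these counts are not independent of each other. Nor are the members: enriched saline replicate 2 held the highest value of 3 and standard saline replicate 2 the lowest of 4.

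**Figure D4:**
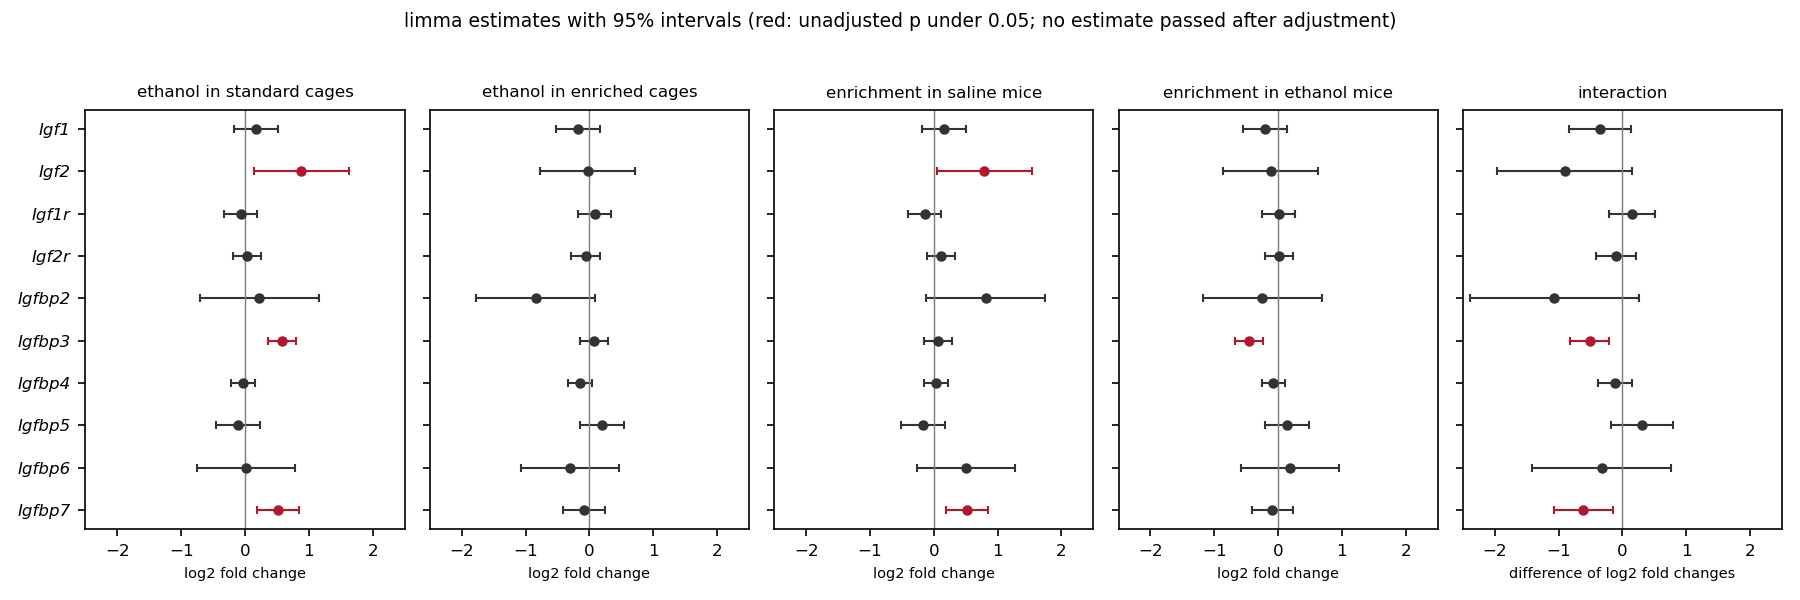
limma log2 fold changes (x axis; in the last panel the difference between the 2 ethanol effects) with 95% intervals for the 10 genes, ethanol over saline in each cage type, enriched over standard cages in each injection group, and the interaction. Red marks an unadjusted p under 0.05: Igf2, Igfbp3 and Igfbp7 for ethanol in standard cages, Igf2 and Igfbp7 for enrichment in saline mice, Igfbp3 for enrichment in ethanol mice, and Igfbp3 and Igfbp7 for the interaction.

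Of 49 other genes of the IGF and insulin pathway, 48 were in the table and 40 passed the filter on low values. The 8 others averaged under 1 TPM: Igfbp1 and Igfals of the blood carrier system, the insulin genes Ins1 and Ins2, Insrr, Irs4, the protease gene Pappa and the RNA-binding protein gene Igf2bp1. Downstream of the receptors, Rheb averaged 128 TPM, Akt1 109 TPM, Irs2 25.7 TPM and Irs1 9.56 TPM over the 12 libraries. The insulin receptor gene Insr averaged 22.0 TPM. None of the 40 passed limma's adjusted p in any comparison. Their median log2 fold change for enrichment in saline mice was -0.09, with 11 higher and 29 lower, where the members' was 0.13. Over all genes tested 7613 were higher and 7330 lower. Their median interaction was 0.10, with 30 higher and 10 lower, where the members' was -0.34. Over all genes tested 7229 were higher and 7718 lower. The differences between the lists were not tested. At an unadjusted p under 0.05 there were 3 of 40 for ethanol in standard cages, 6 of 40 for ethanol in enriched cages, 4 of 40 for enrichment in saline mice, 1 of 40 for enrichment in ethanol mice and 4 of 40 for the interaction, against the same 7.39%, 7.76%, 10%, 5.57% and 7.41% of all genes. For ethanol averaged over housing there were 3 of 40 against 8.02%, and for enrichment averaged over injection 1 of 40 against 7.96%.

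Igfbpl1, a secreted relative of the binding proteins, averaged higher in ethanol mice in both cage types. In enriched cages its libraries overlapped, at 1.63 to 4.90 TPM in ethanol and 0.63 to 2.32 TPM in saline mice. Igfbpl1 averaged 3.14 ± 1.65 TPM in enriched ethanol, 3.39 ± 0.455 TPM in standard ethanol, 1.36 ± 0.869 TPM in enriched saline and 1.10 ± 0.640 TPM in standard saline (SD, n = 3 each). Its log2 fold change averaged over housing was 1.17 (SE 0.30; limma adjusted p = 0.403). Foxo4, a transcription factor that AKT restrains, had a log2 fold change of 0.25 and Sos1, an exchange factor that activates RAS, one of 0.19 in the same comparison (limma adjusted p = 0.580 and 0.597). Rheb, the GTPase that activates MTOR, averaged 132 ± 3.18 TPM in standard ethanol and 117 ± 6.51 TPM in standard saline (SD, n = 3 each), a log2 fold change of 0.17 (limma adjusted p = 0.628).
In enriched cages Ptpn1, a phosphatase that switches off the insulin receptor, averaged 31.3 ± 1.58 TPM in ethanol and 20.98 ± 5.52 TPM in saline mice, which is 0.60 on the log2 scale (SE 0.19; limma adjusted p = 0.576). Sos1 (0.33), Igfbpl1 (0.97) and Htra1, a secreted protease that cleaves binding proteins (0.11), were also higher in ethanol mice there, and Shc1, an adaptor of the receptor, was lower (-0.39; limma adjusted p between 0.592 and 0.634). In saline mice, enrichment gave -0.50 for Ptpn1, -0.28 for Sos1, -0.23 for Irs2 and 0.18 for Rheb (limma adjusted p between 0.425 and 0.478), values that share the enriched saline libraries with those just given. In ethanol mice Htra1 gave 0.12 for enrichment (limma adjusted p = 0.887). The suppressor of cytokine signalling Socs2, a brake on growth hormone signals, had 0.18 for enrichment averaged over injection (limma adjusted p = 0.585). For the interaction the values were 0.87 for Ptpn1, 0.31 for Irs2, 0.20 for Htra1 and -0.23 for Rheb (limma adjusted p between 0.564 and 0.661).

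For each of the 10 genes the most similar named genes over the 12 libraries were taken by Pearson's r of log2(TPM + 0.5), as a description without a test. All points share the same 12 libraries. Igf2 was most like Ifitm3 (r = 0.94) and the collagen gene Col1a2 (0.93), and r was 0.83 and 0.82 without the pair of libraries farthest in Igf2. Among the genes most like Igfbp2 was the vitamin transporter gene Slc5a6 (0.97, and 0.83 without enriched saline replicate 2 and standard ethanol replicate 3). Igfbp6 was most like Lamb2, a laminin chain (0.95 and 0.86 likewise), and Igfbp7 like the matrix metalloproteinase gene Mmp14 (0.92 and 0.81). Igfbp3 was most like Rnf122 (0.93 and 0.87) and the potassium channel gene Kcnj16 (0.92 and 0.83). The closest genes to the others were Lmf1 for Igf1 (0.92), Sec22b for Igf1r (0.93), Larp7 for Igf2r (0.86), Nubp1 for Igfbp4 (0.94) and Ell2 for Igfbp5 (0.88).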

How the data were processed

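The data are 1 value per gene for 12 mouse hippocampus libraries, prepared from rRNA-depleted total RNA with a stranded kit, per the labels' protocols. Per the submitters' processing notes, CASAVA, kallisto, sleuth and mm10 were used, with no version or role stated. The annotation and the summing of transcripts over genes are not stated in the sources used here. The authors named the deposited values TPM. Column sums of 973187 to 1024536 are not those of plain TPM, so the authors' values were taken as a signal in proportion to TPM. The planned design had assumed plain TPM, and its test was kept. TPM keeps no read counts, so neither counting intervals nor detection limits could be set.

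Groups came from the sample titles and tags. Group means of log2(TPM + 0.5) were estimated with limma 3.58.1 (R 4.3.3) for the 14947 genes averaging at least 1, using 8 residual and 3.82 prior degrees of freedom and a mean-variance trend. The 7 contrasts were two-sided, and p values were adjusted by Benjamini-Hochberg across these 14947 genes, with 0.05 as threshold. The added 0.5 makes fold changes of low genes too small. The fit was also run on simulated data with independent normal noise for each gene. Such data lack shifts shared by many genes of a library, so the run cannot tell how the fit behaves under them. Correlations used 100000 permutations (scipy 1.17.1, numpy 2.4.6), with adjustment within each family. Positions are from GENCODE M21 on GRCm38, and promoters from RefSeq, which had all 10 genes. Alternatives covered the pseudocount, the filter, the scaling, the trend, library weights, replicate numbers and left-out libraries. The members, the gene lists and the tests were chosen with earlier results of these data known. All 10 members are named; a fold change with its test is given where the unadjusted p is under 0.05 or the groups do not overlap, and for at most 5 other pathway genes per comparison. kallisto divides reads among similar transcripts by estimate. Some genes that these rules select are not reported here.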

Additional observations from a re-analysis of the deposited data

Results flagged for a closer look

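Igfbp2 in enriched saline replicate 2, at 143 TPM, stood far from the other 5 saline libraries and from the other 5 enriched libraries. That library also held the highest choroid plexus markers. Igfbp2 in standard ethanol replicate 3, at 50.2 TPM, stood far from the other 5 ethanol libraries. These came from a test for a single outlying library in 40 sets of 6 libraries, where chance marks about 1 set in 20.

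The effect of ethanol differed between cage types for Igfbp3, by a log2 difference of -0.52, and for Igfbp7, by -0.61, at the unadjusted limma p (0.0036 and 0.0142). Neither passed the adjustment (limma adjusted p = 0.529 and 0.601). For Igfbp3 the difference without 1 library lay between -0.60 and -0.44, and for Igfbp7 between -0.72 and -0.46.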

How the results depend on the processing

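Each of the 12 member results (a named gene in a comparison) was recomputed under 21 alternatives. None of the 252 values reversed and none passed the adjusted threshold. These results had been chosen for an unadjusted p under 0.05 or for groups that did not overlap. That choice favours a kept direction, so the lack of reversals is no support for them. Outside this set values did change sign when libraries were left out, as given above for Igfbp2 and Igfbp6. The adjusted p of Igfbp3 for ethanol in standard cages ran from 0.144 to 0.569 and its log2 fold change from 0.55 to 0.63. The enrichment value of Igf2 in saline mice ran from 0.09 to 1.15. TPM gives no depth, so what depth limits could not be assessed.

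Counts of all genes called moved more, and the cause was not tested. They are given for ethanol in standard cages, ethanol in enriched cages, enrichment in saline mice, enrichment in ethanol mice, ethanol averaged, enrichment averaged and the interaction, in this order. The counts were 2, 0, 4, 1, 2, 3 and 2 as reported. They were 0, 2, 4, 0, 0, 2 and 0 with a pseudocount of 0.1. They were 7, 1, 7, 2, 6, 6 and 4 with no filter, and 0, 0, 1, 0, 0, 0 and 0 with a minimum mean of 5. Enrichment in saline mice had 1 call with a pseudocount of 1, 2 with median-of-ratios scaling and 2 with library weights. Leaving out 1 library at a time gave 2 to 7, 0 to 15, 1 to 20, 1 to 21, 1 to 10, 2 to 12 and 1 to 12, with the highest counts without enriched ethanol replicate 3 or standard saline replicate 2. Without both enriched saline replicate 2 and standard saline replicate 2, chosen after seeing the data, they were 7, 1, 10, 2, 0, 9 and 0.

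No pairing by replicate number was seen in the values. Over 18 pairs of same-numbered libraries the correlation of deviations lay between -0.15 and 0.06, with 0 above 0.1. This cannot tell whether same-numbered mice shared a litter, which the labels do not give. With the replicate number as a block the counts were 2, 0, 3, 1, 1, 2 and 2.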

Other observations

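Among the pathway genes, Gh, the growth hormone gene of the pituitary, was between 0.188 and 18.9 TPM in enriched ethanol libraries, and at most 3.78 TPM in standard ethanol, 4.13 TPM in enriched saline and 1.34 TPM in standard saline libraries. It was listed at 0 in libraries of those last 3 groups, and it had no unadjusted limma p under 0.05 in any comparison.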
